A study of Mus musculus with 12 samples.

Results

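Cirbp and Rbm3 code for the cold-inducible RNA-binding proteins CIRBP and RBM3, and they were 2 of the 12394 genes with a probe set on the array. Both were chosen by measured values of these arrays: earlier tumor-against-control results were known when they were picked, so their tumor-against-control values are given below as a description, with no test. Each is read by 1 probe set, 1416332_at for Cirbp and 1422660_at for Rbm3. The annotation lists the Rbm3 probe set for Rbm3 (chromosome X) and for the pseudogene Rbm3-ps (chromosome 1), so the transcripts of the gene and of its pseudogene cannot be told apart in any Rbm3 value here. Cirbp lies on chromosome 10 and its probe set is listed for no other gene.

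The arrays measured total RNA of lung and liver tissue from female nude NCR mice on day 7. Tumor-bearing mice had been given 4T1 cells orthotopically. 4T1 is a line from a mouse breast tumor that can seed distant organs, and the tissues of these mice are titled pre-metastatic. Control mice were injected with phosphate-buffered saline. The 4 groups were lung of tumor-bearing mice, lung of control mice, liver of tumor-bearing mice and liver of control mice, each with 3 arrays, 12 in all. Per the series' design text both organs were taken from the same 3 tumor-bearing and 3 control mice, but no label ties a lung array to a liver array. Every mouse, controls included, carried the nude mutation, which leaves mice without a working thymus and with few mature T cells.

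CIRBP and RBM3 are small proteins with an RNA recognition motif followed by a glycine-rich tail. Their messages accumulate when cells or tissues are cooled mildly below body temperature and decline with warming, the opposite of the classic heat shock genes, which heat shock factor 1 switches on when proteins misfold. Both proteins bind messenger RNAs and affect their stability, translation and polyadenylation. CIRBP is also known to shape the daily rhythm of the clock gene Clock by following the body temperature cycle, and, when released from cells, to act on innate immune receptors as an inflammatory signal.

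The promoters are shown because a short element before the Cirbp start is described as a mild cold response element. In RefSeq's promoter windows for build GRCm38.p6, which run from 250 bases before to 50 bases after a gene's start, Cirbp has 2 entries. The first lies at chr10:80167589-80167888 (plus strand), and the capitals mark the mild cold response element TCCCCGCC, which begins at -247 from the start. The second lies at chr10:80167921-80168220 (plus strand), and the capitals mark the GC boxes GGGCGG on either strand. Windows of Hsph1 and Hspb1, the heat shock genes described below, are set beside them, at chr5:149636287-149636586 (minus strand) and chr5:135887669-135887968 (plus strand), with capitals on matches to GAANNTTC, the inverted pair of heat shock element units.
Cirbp, first start: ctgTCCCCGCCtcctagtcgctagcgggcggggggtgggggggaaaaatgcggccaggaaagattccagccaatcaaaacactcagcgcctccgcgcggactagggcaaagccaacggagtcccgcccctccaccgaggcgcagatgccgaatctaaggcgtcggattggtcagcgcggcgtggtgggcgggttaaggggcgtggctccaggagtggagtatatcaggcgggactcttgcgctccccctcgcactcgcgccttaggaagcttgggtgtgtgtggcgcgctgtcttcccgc
Cirbp, second start: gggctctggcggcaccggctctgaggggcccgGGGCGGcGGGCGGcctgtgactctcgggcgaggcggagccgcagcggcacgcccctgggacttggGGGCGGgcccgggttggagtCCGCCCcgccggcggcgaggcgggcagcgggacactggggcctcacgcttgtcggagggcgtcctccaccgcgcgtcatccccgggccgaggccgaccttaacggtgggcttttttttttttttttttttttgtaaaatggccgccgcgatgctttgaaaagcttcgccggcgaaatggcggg
Hsph1, first start: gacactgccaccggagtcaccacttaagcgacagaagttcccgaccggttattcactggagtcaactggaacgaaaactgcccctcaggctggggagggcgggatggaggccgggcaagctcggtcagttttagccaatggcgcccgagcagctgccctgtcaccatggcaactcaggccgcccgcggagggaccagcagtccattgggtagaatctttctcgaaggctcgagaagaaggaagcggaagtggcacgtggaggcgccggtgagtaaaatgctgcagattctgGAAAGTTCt
Hspb1: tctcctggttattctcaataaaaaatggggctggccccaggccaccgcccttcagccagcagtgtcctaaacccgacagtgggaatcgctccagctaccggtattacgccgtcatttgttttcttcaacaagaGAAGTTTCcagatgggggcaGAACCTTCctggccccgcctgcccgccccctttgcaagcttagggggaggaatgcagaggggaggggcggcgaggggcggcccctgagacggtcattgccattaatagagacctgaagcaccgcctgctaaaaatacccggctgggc

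Searched on both strands, TCCCCGCC occurred 1 time in the first Cirbp window and 0 times in the second, and 5.4% of all 32851 promoter windows held it. The heat shock element letters GAANNTTC were in neither Cirbp window and in 7.9% of all windows. They occurred at 41 bases after the start in Hsph1, and at -117 and -97 in Hspb1. Among the heat shock genes listed below, 10 of the 16 with a window had a match to GAANNTTC and 5 had one to TCCCCGCC. Counted by window, as the shares of all windows are, 11 of their 21 windows matched GAANNTTC and 6 matched TCCCCGCC. Windows of Hspd1 and Hspe1 overlap and hold the same GAANNTTC site, which is counted for each. GGGCGG matched 3 and 4 times in the Cirbp windows (35.7% of all windows held it), and CCAAT matched 2 times in the first and 0 times in the second (37.4%). No overlap between matches of different motifs was removed. The E-box, written CACGTG, had no match in either Cirbp window and was present in 7.2% of all windows. The same held for the TATA box, written TATAAA (13.6% of all windows), and for the hypoxia core, written ACGTG (19.6%). A match is a description of the letters only.

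The labelled tissues carried their defining transcripts. The surfactant gene Sftpc had log2 values of 15.70 to 15.86 in lung and 2.24 to 6.54 in liver. Within lung the albumin gene Alb, a hepatocyte transcript, was at 14.39 in tumor replicate 1 and 14.65 in control replicate 3 but 8.96 to 11.08 elsewhere, so the members' lung results are also given without these 2 arrays. The correlation between arrays of a group was 0.989 to 0.996. All values are the authors' log2 GCRMA values, on which a difference of 1 is a doubling. The number of arrays limits the precision, and the p-values measure the spread between these arrays.

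Cirbp was higher in tumor-bearing than in control mice in both organs, by similar amounts. In lung it read 10.16, 9.78 and 9.79 on the arrays of tumor-bearing mice, against 8.08, 8.60 and 8.39 on those of control mice. Every lung array of tumor-bearing mice lay above every control lung array, with a gap of 1.18 between the nearest 2 arrays. The means were 9.91 ± 0.21 in tumor-bearing and 8.36 ± 0.26 in control lungs (SD, n = 3 each), a difference of 1.55 (SE 0.18) or 2.93-fold. In liver it read 8.70, 8.39 and 8.08 in tumor-bearing mice, against 7.23, 7.05 and 6.56 in control mice. The liver groups did not overlap either, and the gap was 0.84. The means were 8.39 ± 0.31 and 6.95 ± 0.35 (SD, n = 3 each), a difference of 1.44 (SE 0.23) or 2.72-fold in tumor-bearing over control livers.

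Rbm3 was also higher in tumor-bearing mice in both organs, by far less. In lung it read 13.79, 13.65 and 13.50 in tumor-bearing mice, against 13.31, 13.42 and 13.15 in control mice. The lung groups did not overlap, but the lowest tumor array stood only 0.09 above the highest control array. The lung means were 13.65 ± 0.15 in tumor-bearing and 13.29 ± 0.13 in control mice (SD, n = 3 each), a difference of 0.36 (SE 0.12) or 1.28-fold. In liver Rbm3 read 12.05, 12.02 and 12.20 in tumor-bearing mice, against 11.73, 11.92 and 11.83 in control mice. These groups were 0.10 apart, with means of 12.09 ± 0.10 in tumor-bearing and 11.83 ± 0.09 in control livers (SD, n = 3 each), a difference of 0.26 (SE 0.09) or 1.2-fold. Without lung tumor replicate 1 and lung control replicate 3, the arrays rich in hepatocyte transcripts, the lung difference was 1.44 for Cirbp and 0.21 for Rbm3.

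**Figure D1:**
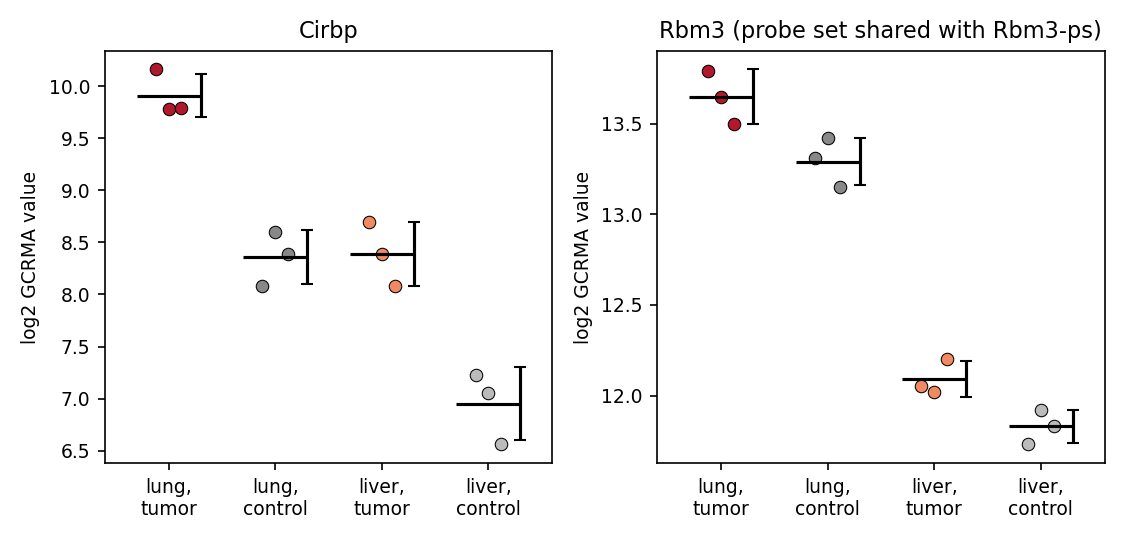
Log2 GCRMA values of Cirbp (left) and Rbm3 (right) on each array, by organ and condition. Points are arrays, the horizontal lines are means and the bars are SDs (n = 3 each). Within each organ all tumor arrays lie above all control arrays, with a wide gap for Cirbp (1.18 in lung, 0.84 in liver) and a narrow one for Rbm3 (0.09 and 0.10).

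The change of each member was about the same size in the 2 organs. The lung change minus the liver change was 0.11 for Cirbp and 0.09 for Rbm3, smaller than the SE of either organ's change for Cirbp and no larger than it for Rbm3. Among all genes tested, ordered by tumor minus control, Cirbp stood at place 68 of 7908 in lung and 63 of 7713 in liver. Rbm3 stood at place 733 in lung and 1144 in liver. Of the 7195 genes tested in both organs, 9 had a rise in the mean at least as large as that of Cirbp in each organ, Cirbp included. The others were the granulocyte genes S100a8, S100a9 and Prtn3, the cytokine gene Il1b, the cytokine feedback inhibitor Socs3, the antigen transporter Tap1, the interferon-induced GTPase Gbp6 and the zinc finger gene Zfp991. Tap1 and Gbp6 overlapped between the lung groups, and Zfp991 overlapped in both organs.

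These counts stand beside the following background. In lung all tumor arrays were above all control arrays for 9.0% of the genes tested and below them for 9.57%. In liver the shares were 10.4% above and 22.7% below. Of the genes tested in both organs, 1.9% were above in each. By limma at an adjusted p of 0.05, 0.733% of all genes tested were called in lung and 1.87% in liver. The members were picked with these contrasts known, so their own calls are not given and nothing is read from the absence of overlap.

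**Figure D2:**
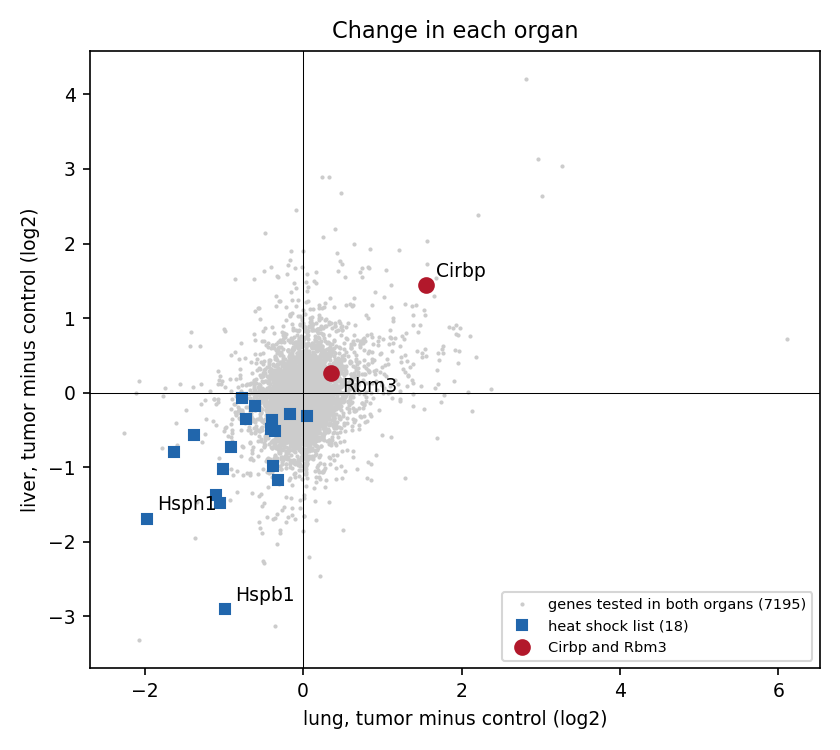
Tumor minus control (log2) in lung (x axis) and in liver (y axis) for the 7195 genes tested in both organs (grey), Cirbp and Rbm3 (red circles) and 18 heat shock genes (blue squares). Cirbp lies at 1.55 and 1.44 and Rbm3 at 0.36 and 0.26, while 17 of the 18 heat shock genes lie to the left of 0 in lung and 18 of 18 lie under 0 in liver.

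Both members were higher in lung than in liver, a contrast that did not choose them. In tumor-bearing mice Cirbp averaged 9.91 ± 0.21 in lung and 8.39 ± 0.31 in liver (SD, n = 3 each), a difference of 1.52 (SE 0.20) or 2.87-fold (limma adjusted p = 0.000584 over 8287 genes). In control mice it averaged 8.36 ± 0.26 in lung and 6.95 ± 0.35 in liver, 1.41 higher in lung (SE 0.22, 2.66-fold, limma adjusted p = 0.00126 over 8271 genes). Rbm3 differed by a like amount with less spread, at 13.65 ± 0.15 in lung and 12.09 ± 0.10 in liver of tumor-bearing mice, a difference of 1.56 (SE 0.12) or 2.94-fold (limma adjusted p = 4.87e-05). In control mice Rbm3 averaged 13.29 ± 0.13 in lung and 11.83 ± 0.09 in liver, a difference of 1.46 (SE 0.10) or 2.76-fold (limma adjusted p = 2.88e-05). In each of these 4 contrasts every lung array lay above every liver array. The share of all genes separated in this way was not counted, so nothing is read from that separation. Without the lung array rich in hepatocyte transcripts the difference in tumor-bearing mice was 1.40 for Cirbp and 1.49 for Rbm3 (limma adjusted p = 0.00246 and 0.000275). In control mice it was then 1.40 for Cirbp and 1.53 for Rbm3 (limma adjusted p = 0.00617 and 9.37e-05).

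Higher values in lung were common on these arrays. By limma, 44.7% of the genes tested in tumor-bearing mice and 45.6% of those tested in control mice were called higher in lung. The lung-minus-liver difference of all genes had a median of 0.25 in tumor-bearing and 0.18 in control mice. Against that median Cirbp was 1.27 higher in tumor-bearing and 1.23 higher in control mice, and Rbm3 1.30 and 1.28. Between 75.7% and 76.3% of genes had a smaller difference than either member in either condition. These were bulk tissue samples, so a change in the share of cells that carry a message and a change in its amount per cell cannot be told apart.

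**Figure D3:**
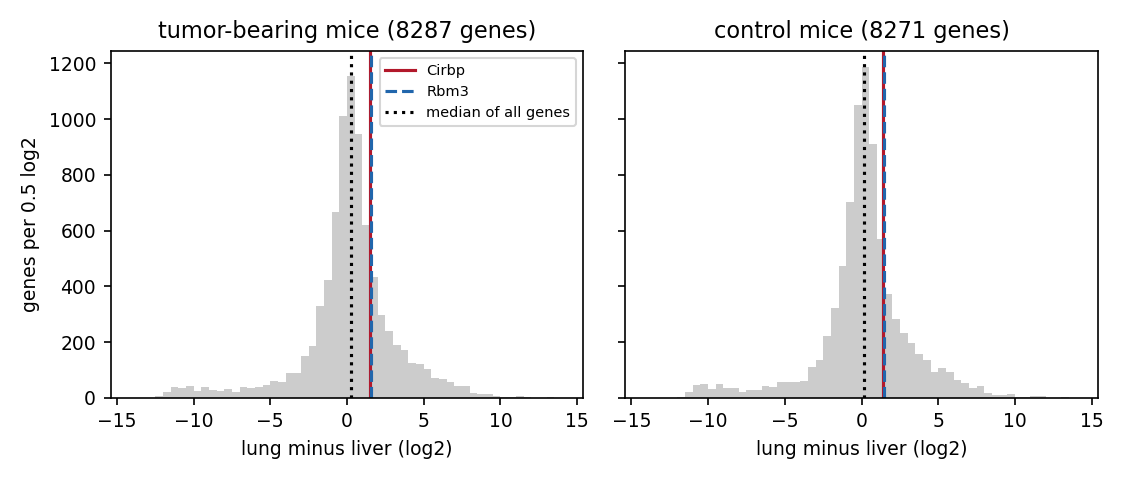
Number of genes by lung-minus-liver difference (log2, bins of 0.5) in tumor-bearing mice (left, 8287 genes) and control mice (right, 8271 genes). Vertical lines mark Cirbp (1.52 and 1.41), Rbm3 (1.56 and 1.46) and the median of all genes (0.25 and 0.18), so both members lie on the upper side of the distribution but within its bulk.

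Set in order, the 4 group levels of Rbm3 ran from lung of tumor-bearing mice through control lung and liver of tumor-bearing mice to control liver, and no 2 neighbours overlapped. For Cirbp the order of the extremes was the same, but the middle groups overlapped. Liver of tumor-bearing mice (8.08 to 8.70) spanned the same range as control lung (8.08 to 8.60). The level of Cirbp in livers of tumor-bearing mice thus differed from that of control lungs by less than the spread between arrays. How many other genes show the order seen for Rbm3 was not counted, so nothing is read from it. Its gaps within an organ (0.09 in lung, 0.10 in liver) also belong to the contrasts known when Rbm3 was picked.

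Within a group the members did not follow each other. After each group's mean was subtracted, Cirbp and Rbm3 correlated at a Pearson r of 0.038 over the 12 arrays, whereas after each organ's mean was subtracted r was 0.811. The higher value is over arrays that fall into tumor and control clusters. In lung, tumor replicate 1 was highest for both members. In liver of tumor-bearing mice replicate 1 was highest for Cirbp and replicate 3 for Rbm3.

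Genes with the most similar pattern were sought among 8203 genes, with Pearson r over the 12 arrays after each organ's mean was subtracted. These are descriptions with no test, and the arrays share their tumor and control split. The closest to Cirbp were Vasp, an actin filament regulator (r = 0.963), Il1b, which codes for interleukin 1 beta (0.935), the kinase gene Vrk1 (0.904), the GTPase-activating gene Arap2 (0.902) and the RNA methyltransferase gene Trdmt1 (0.901). Vasp averaged 10.20 ± 0.13 in tumor-bearing and 9.76 ± 0.13 in control lungs, and 8.15 ± 0.04 and 7.72 ± 0.15 in livers (SD, n = 3 each). The most opposed were Synj2bp (-0.954), the Mediator subunit gene Med21 (-0.946) and the retinaldehyde dehydrogenase gene Aldh1a1 (-0.944).

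The closest to Rbm3 were Ptpn6, the phosphatase SHP-1 (r = 0.969), the leukocyte tetraspanin gene Cd53 (0.944), Tyrobp, a signalling adaptor of myeloid and NK cells (0.932), the inflammatory caspase gene Casp4 (0.931) and Spi1, the myeloid and B cell transcription factor PU.1 (0.930). Cd53 averaged 11.59 ± 0.27 in tumor-bearing and 10.47 ± 0.24 in control lungs, and 8.92 ± 0.24 and 8.36 ± 0.36 in livers (SD, n = 3 each). The most opposed were Bpnt1 (-0.939), Txlng (-0.916) and Brd1 (-0.915). In these sets Rbm3 stood at place 78 for Cirbp and Cirbp at place 67 for Rbm3.

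Within groups, with each group's mean subtracted, other genes came first. For Cirbp these were Fank1 (r = 0.903), Dgcr6 (0.89) and the myeloid inhibitory receptor gene Sirpa (0.885), with the endoplasmic reticulum co-chaperone gene Dnajc3 (-0.904), the splicing factor gene Smndc1 (-0.888) and the translation initiation factor gene Eif1a (-0.87) at the other end. For Rbm3 they were Nprl3 (0.928), the lysosomal protease gene Lgmn (0.919) and Commd7 (0.912), with the dynein chain gene Dync1i2 (-0.935), Bpnt1 (-0.934) and Galnt4 (-0.907) at the other end. These are the extremes of 8203 genes over 12 arrays, with no test, so nothing is read from their size. Fank1 had group means of only 3.16 to 4.73, close to the filter value of 4.

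Leukocyte markers were set beside the same contrast, with calls by limma. In lung 5 of the 8 neutrophil markers tested, 1 of 3 B cell markers and 0 of 3 macrophage markers were called higher in tumor-bearing mice and 0 lower, and in liver 0 of 4, 0 of 1 and 0 of 5 were called. Among all genes tested, 0.733% in lung and 1.87% in liver were called in either direction. Of the called neutrophil markers, Ltf, Camp, Mmp8 and Cd177 were under the filter value of 4 on every control lung array. They entered the test only through the tumor arrays, so their direction was fixed in advance and nothing is read from their calls. The mean of 8 neutrophil markers was 10.27 to 10.59 on lung arrays of tumor-bearing mice and 5.39 to 6.51 on control lung arrays. In liver it was 4.65 to 4.94 in tumor-bearing and 3.14 to 4.24 in control mice, with 4 of the 8 markers at or under 4 on every liver array of tumor-bearing mice and 4 or 5 on those of control mice. B cell markers had a mean of 6.31 to 6.93 in tumor-bearing and 4.73 to 5.04 in control lungs, but 4.34 to 4.73 and 4.38 to 4.83 in livers. Of the 3 tested in lung, 2 were higher and 1 was lower in tumor-bearing mice (-0.35 to 4.09). On control lung arrays 1 to 3, 2, 2 and 1 of the 4 markers were at or under 4, against 1 on each lung tumor array. The B cell mean and call in lung thus rest in part on values near the floor, and nothing is read from them. Macrophage markers had a mean of 6.22 to 6.54 and 6.05 to 6.10 in lungs, and 9.27 to 9.55 and 8.84 to 9.25 in livers, of tumor-bearing and control mice. The part of these cells in the Cirbp and Rbm3 values was not tested.

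Relatives of the members by structure or function differed by less than Cirbp did in either organ. Since limma called only 0.733% of all genes in lung and 1.87% in liver, 0 calls in a list of this size is near the background, and nothing is read from it. All of the lists below were drawn up with earlier results of these data known, and their counts are given with the median tumor-minus-control difference of all genes (-0.01 in lung, -0.07 in liver) for comparison. Of 8 genes for proteins with a cold shock domain, the fold shared with bacterial cold shock proteins, 3 were tested and 0 were called in either organ. The largest differences were 0.13 for Ybx1 in lung (limma adjusted p = 0.581) and -0.25 for Ybx3 in liver (limma adjusted p = 0.12), both genes of the YB family that packages messenger RNA. Of 16 genes for RNA recognition motif proteins close to the members, 10 were tested and 0 were called, with medians of 0.09 in lung and 0.03 in liver.

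Hnrnpd, the AU-rich element binding protein AUF1, came nearest to a call in that list. It read 12.27 ± 0.03 in tumor-bearing and 11.79 ± 0.04 in control lungs (SD, n = 3 each), a difference of 0.48 with no overlap (limma adjusted p = 0.0653, 0.0278 to 0.376 over the alternatives). In lung Ewsr1, a FET family gene, differed by 0.33 (limma adjusted p = 0.458). In liver Rbm25 and Rbm39, both splicing factor genes, differed by -0.41 and -0.32 (limma adjusted p = 0.0912 and 0.122).

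Messages that CIRBP or RBM3 are known to bind or regulate were tested next. All 5 were tested and 0 were called in each organ, with medians of -0.11 in lung and -0.28 in liver. Clock read 9.61 ± 0.16 in tumor-bearing and 9.81 ± 0.16 in control lungs, and 7.45 ± 0.61 in tumor-bearing and 7.84 ± 0.23 in control livers (SD, n = 3 each), and the groups overlapped in both organs (limma adjusted p = 0.594 and 0.474). Atr, the replication stress kinase, differed by -0.21 in lung (limma adjusted p = 0.708). Rpa2, a single-strand DNA binding subunit, differed by 0.74 in liver (limma adjusted p = 0.238).

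CLK kinases, whose activity depends on temperature, and the SR splicing factors they phosphorylate had medians close to those of all genes. Of 16 listed, 15 were tested and 0 were called in either organ, with medians of -0.03 in lung and -0.05 in liver. The largest differences were -0.33 for Srsf10 and 0.31 for Srsf5 in lung (limma adjusted p = 0.214 and 0.647), and -0.68 for Srsf4 and 0.47 for Srsf5 in liver (limma adjusted p = 0.184 and 0.102).

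Many of these relatives were higher in lung than in liver, as were 44.7% of all genes tested in tumor-bearing mice and 45.6% in control mice. In tumor-bearing and control mice limma called 2 and 3 of the 3 tested cold shock domain genes, 9 and 9 of the 10 RNA recognition motif genes, 3 and 3 of the 5 bound messages and 12 and 13 of the 15 splicing genes higher in lung, and 0 lower. For the bound messages that is near the share of all genes. Ybx3 was 2.02 higher in tumor-bearing mice (limma adjusted p = 5.62e-06) and 1.83 in control mice (6.49e-05). Rtn3, a reticulon whose translation RBM3 is known to raise, was 2.24 higher in tumor-bearing (limma adjusted p = 4.09e-06) and 1.98 in control mice (1.41e-06). Srsf10 was 2.07 and 2.24 higher (limma adjusted p = 0.000117 and 1.91e-06), Tra2a 2.28 and 2.11 (7.33e-05 and 3.94e-05) and Rbmx, a close relative of the members, 1.72 and 1.46 (0.00216 and 0.000438). The calls of these genes held under every alternative, but some sizes depended on the processing. The lowest differences in tumor-bearing and control mice were 0.66 and 0.40 for Rbmx, 1.10 and 1.42 for Srsf10, and 1.37 and 1.33 for Rtn3. The Carhsp1 call in control mice (0.47, limma adjusted p = 0.0261) was lost on leaving out control lung replicate 1 or 2, or control liver replicate 1, 2 or 3, with adjusted p from 0.0551 to 0.0783.

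Heat shock genes lay on the other side of 0 from the members. Of 21 genes for heat shock factors and their classic targets, 18 were tested in each organ and 0 were called by limma at an adjusted p of 0.05. The mean was lower in tumor-bearing mice for 17 of 18 in lung and 18 of 18 in liver, and all tumor arrays were below all control arrays for 12 of 18 in each organ, against the 9.57% and 22.7% of all genes given above. The medians were -0.74 in lung and -0.65 in liver. Earlier results of these arrays already showed such a list in lung, so it is not independent.

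Hsph1, an HSP110 chaperone, had the widest difference of the list in lung. It read 9.72, 10.92 and 11.92 in tumor-bearing lungs, against 13.04, 12.73 and 12.70 in control lungs, a difference of -1.97 (SE 0.53, limma adjusted p = 0.204). The groups did not overlap, but the tumor arrays spread over more than the difference itself. In liver Hsph1 read 9.29, 10.83 and 11.51 in tumor-bearing mice, against 12.53, 12.24 and 11.95 in control mice, a difference of -1.69 (SE 0.57, limma adjusted p = 0.142). Hspb1, the small chaperone HSP27, read 4.42, 3.76 and 4.75 in tumor-bearing livers, against 8.39, 6.28 and 6.97 in control livers, a difference of -2.90 (SE 0.58, limma adjusted p = 0.0616). Hspa4l, another HSP110 gene, averaged 8.12 ± 0.47 in tumor-bearing and 9.75 ± 0.09 in control lungs (SD, n = 3 each), a difference of -1.63 (limma adjusted p = 0.0555). Without lung tumor replicate 3 it was -1.90 and passed (limma adjusted p = 0.0282), and the alternatives gave adjusted p from 0.00595 to 0.376.

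Set beside each other by array, after the values had been seen, the tumor arrays had lower heat shock values and higher Cirbp values than the control arrays of their organ. The mean of the 18 heat shock genes, less its mean over the organ, was -0.79, -0.46 and 0.07 on lung tumor arrays 1 to 3, against 0.55, 0.30 and 0.32 in control lungs. In livers it was -0.94, -0.36 and 0.02 in tumor-bearing mice, against 0.73, 0.31 and 0.24 in control mice. In both organs tumor replicate 1 had the lowest heat shock mean and the highest Cirbp value, and the groups did not overlap. On tumor array 3 of each organ both the heat shock mean and Cirbp lay above the organ mean. In control livers the order differed, since replicate 1 had the highest value of both. Without the 2 lung arrays rich in hepatocyte transcripts, 17 of the 18 heat shock genes were still lower in tumor-bearing lungs and 13 did not overlap, against 23.4% of all genes below and 16.3% above.

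**Figure D4:**
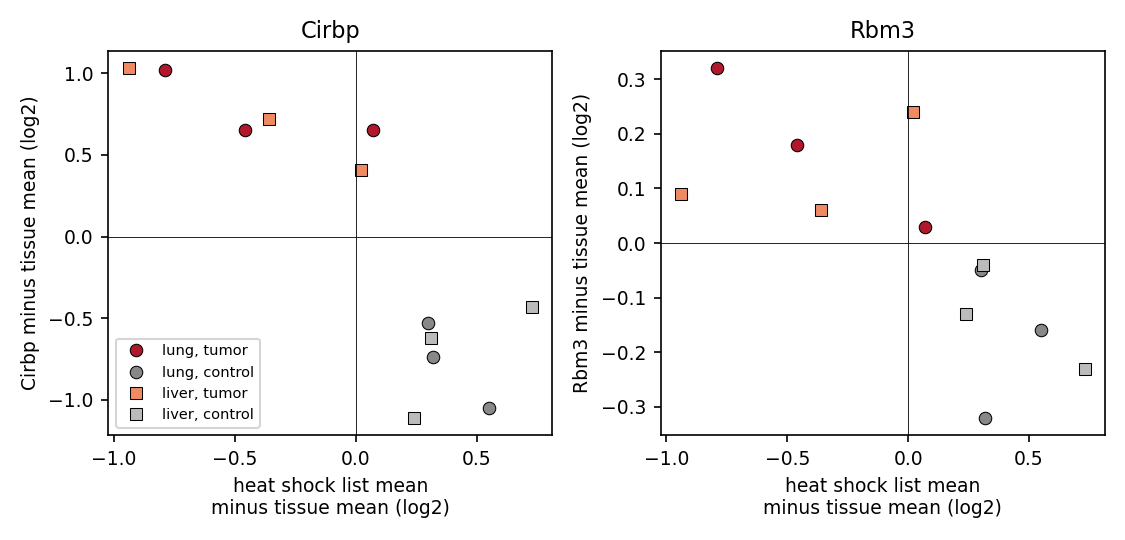
Cirbp (left) and Rbm3 (right), less the organ's mean, against the mean of 18 heat shock genes less the organ's mean (all log2), 1 point per array, with circles for lung and squares for liver and colours for tumor and control. Tumor arrays lie to the left (heat shock means of -0.94 to 0.07) and above 0, and control arrays to the right (0.24 to 0.73) and below 0.

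The labels give no body temperature. Genes of fever and of the daily clock are given as lists, and neither list measures body temperature. Of 10 fever mediators 6 were tested in lung and 4 in liver, and Il1b was the only one called in either organ. It read 10.25, 11.18 and 10.08 in tumor-bearing lungs, against 6.92, 6.85 and 7.92 in control lungs. In livers it read 8.84, 7.59 and 7.49 in tumor-bearing mice, against 4.96, 4.85 and 5.01 in control mice. Il1b rose by 3.27 in lung (9.68-fold, limma adjusted p = 0.0391) and by 3.03 in liver (8.19-fold, limma adjusted p = 0.0348). The lung call was lost on leaving out any 1 of the 6 lung arrays, with adjusted p from 0.0761 to 0.143, and the liver call on leaving out tumor replicate 2 or 3 or any control array, from 0.0604 to 0.142. The alternatives gave adjusted p from 0.00295 to 0.206 in lung and from 0.00513 to 0.142 in liver.

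Of 19 clock genes 14 were tested in each organ and 0 were called by limma. In lung Per2 differed by -0.90 (limma adjusted p = 0.261) and Nfil3 by 1.11 (limma adjusted p = 0.279). Nfil3 read 4.20, 5.05 and 4.76 in tumor-bearing lungs, against 2.96, 3.53 and 4.19 in control lungs. It met the filter value of 4 through the tumor arrays, so its direction was largely fixed in advance and nothing is read from it. In liver Cry1, a core repressor of the clock, differed by -2.26 (limma adjusted p = 0.0823), reading 6.49 ± 1.09 in tumor-bearing and 8.75 ± 0.20 in control mice (SD, n = 3 each). Nr1d1, the repressor REV-ERB alpha, differed by 0.94 (limma adjusted p = 0.154). The hour at which tissue was taken is not in the labels.

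Of 5 genes for receptors and co-receptors of extracellular CIRP, 4 were tested and 0 were called. In lung Ly96, the TLR4 co-receptor MD-2, differed by 0.94 (limma adjusted p = 0.145) and Il6ra by 0.23 (limma adjusted p = 0.865). In liver Cd14 differed by 1.13 (limma adjusted p = 0.441), with 1 control liver at 7.34 and the others at 4.88 and 4.23. Il6ra differed by -1.06 there (limma adjusted p = 0.102). CIRBP and RBM3 are also known to rise in low oxygen, so hypoxia-inducible genes were set beside them, and of 15 listed 12 were tested. In lung 0 were called by limma, with Hk2, a hexokinase, at 8.17 ± 0.15 in tumor-bearing and 9.08 ± 0.17 in control mice (SD, n = 3 each), a difference of -0.91 (limma adjusted p = 0.053), and Adm at -0.46 (limma adjusted p = 0.656).

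In liver 12 of the 15 were tested as well, with Egln3 in place of Hk2, and 1 was called, against 1.87% of all genes. The list had a median of -0.24 there, against -0.07 for all genes. All tumor arrays were below all control arrays for 6 of the 12 and above them for 2, against 22.7% and 10.4% of all genes. Egln3, the oxygen-sensing prolyl hydroxylase PHD3, read 4.79, 4.16 and 5.15 in tumor-bearing livers, against 6.57, 6.70 and 6.69 in control livers. It fell by 1.95 on the log2 scale (3.87-fold, limma adjusted p = 0.0419). The call was lost on leaving out any 1 of the 6 liver arrays, with adjusted p from 0.0568 to 0.142. With the mean of all Egln3 probe sets the difference was only -0.97 and was not called (limma adjusted p = 0.0664). The adjusted p ranged from 0.00288 to 0.142 over the alternatives.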

How the data were processed

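Lung and liver tissue RNA, 3 samples for each organ and condition, was hybridized to Affymetrix mouse arrays. The authors deposited log2 values for each probe set, computed with GCRMA per the submitters' processing notes, which also name limma. Their versions are not named there. GCRMA models background from the probe's sequence and then applies quantile normalization, which reduces differences in total signal between arrays. Some differences remained in the deposited values. Over genes above 4 on every array, the median was 8.99 to 9.12 on tumor liver arrays and 9.17 to 9.20 on control liver arrays. All arrays shared a lowest value of 2.044, and 26.7% to 28.5% of each array's values lay within 0.05 of it.

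Of 22626 probe sets, 20380 were listed with 1 gene, 691 with several and 1555 were not listed. For a gene with several probe sets the one of highest mean across the 12 arrays was kept. The Rbm3 probe set, listed with Rbm3-ps as well, was added for Rbm3. A gene entered a test when 3 or more of its arrays exceeded 4 (log2). Tests used limma 3.58.1 (lmFit, eBayes) in R 4.3.3 on the 6 arrays of each comparison, with Benjamini-Hochberg adjustment at 0.05 over all genes tested. Every adjusted p is from limma.

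The members and gene lists were chosen with earlier results of these data known. Named genes were, per list and comparison, those past the threshold (at most 4, largest first) or else the 2 with the largest absolute difference. For the organ contrast only the first 4 lists of relatives were named, and in part. Correlated genes were the 5 highest and 3 lowest after subtracting organ means and the top 3 at each end after subtracting group means, among genes above 4 on at least 6 arrays. Alternatives covered normalization, probe sets, filter, eBayes options, a joint fit of the 12 arrays, a replicate block and each array left out. Leaving out both lung arrays rich in hepatocyte transcripts was chosen after seeing the data. With 200 genes changed in simulated data, the fits recovered 48.5% to 67.5% of changes of 1 (log2) and 86.5% to 92% of changes of 2, with 3 to 12 false calls. Motifs were counted in 32851 RefSeq promoter windows.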

Additional observations from a re-analysis of the deposited data

Results flagged for a closer look

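For 2 hypoxia-inducible genes the tumor-minus-control difference stood apart between the organs in the fit of all 12 arrays, but each was measured in only 1 organ, so this is no evidence of an organ difference. For Egln3 the lung change minus the liver change was 2.08, with lung levels close to the lowest array value (2.23 ± 0.25 in tumor-bearing and 2.10 ± 0.01 in control mice, SD, n = 3 each), where a fall could not show. For Hk2 it was -1.12, with liver levels under the filter value of 4 (3.71 ± 0.15 in tumor-bearing and 3.50 ± 0.30 in control mice, SD, n = 3 each). Each value mainly restates the change in the organ where the gene was measured.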

How the results depend on the processing

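Cirbp and Rbm3 kept their direction in both organs under every alternative run, from 1.41 to 1.67 for Cirbp and 0.21 to 0.43 for Rbm3 in lung, and from 1.25 to 1.60 and 0.21 to 0.38 in liver. Rbm3 moved by more than its pooled SD within groups without both lung arrays rich in hepatocyte transcripts (0.21 in lung) and under median centring (0.38 in liver). The organ differences kept their call under every alternative, with adjusted p up to 0.00373 and 0.00724 for Cirbp and 0.000979 and 0.000403 for Rbm3 in tumor-bearing and control mice. The number of genes called was far less stable, and the cause was not tested. In lung, 58 genes were called, against 11 with no filter, 114 with trend and robust options, 220 with all 12 arrays in 1 fit, 0 by limma without both hepatocyte-rich arrays (769 at an unadjusted p of 0.05) and 5 to 33 with 1 array left out. In liver, 144 were called, against 87 after further quantile normalization, 62 with no filter, 233 with the filter at 5, 422 with trend and robust options, 653 with all 12 arrays and 0 to 1 by limma with 1 array left out (1456 to 1953 at an unadjusted p of 0.05). The liver split of 49 higher and 95 lower became 110 and 68 under median centring and 44 and 43 after quantile normalization. Median centring moved the median of all genes to -0.02 in tumor-bearing and 0.02 in control mice in the organ contrast and to 0.06 in liver, and the organ calls to 3161 higher and 3235 lower in tumor-bearing mice (main 3702 and 2619) and 3407 and 3295 in control mice (3769 and 2937). With the replicate number as a block, 1 gene was called in lung and 0 by limma in liver (1791 at an unadjusted p of 0.05). The numbers were not taken to pair samples, since no label says that a number marks a mouse. With group means subtracted, same-numbered lung and liver arrays correlated at 0.026 to 0.14, 4 of 6 above 0.1. Lung and liver arrays of the same condition with other numbers correlated at -0.131 to 0.028. Each of the 6 correlated best with its own number. Between tumor and control arrays, which come from different mice, this held for replicate 2 in lung (0.089) and in liver (0.131) but not for replicates 1 and 3. The labels do not settle whether same-numbered lung and liver arrays share a mouse, and the main organ tests treated them as unpaired. With that block the organ differences kept their calls (adjusted p = 0.000786 and 0.00548 for Cirbp, 0.000979 and 0.000403 for Rbm3, in tumor-bearing and control mice). Among other named genes, Hspa4l, Hk2, Hnrnpd, Hspb1 and Cry1 passed under 7, 6, 4, 2 and 2 alternatives, and the calls of Il1b in lung, Il1b in liver, Egln3 and Carhsp1 (control organs) were lost under 9, 7, 9 and 7. Turned in sign were Atr in lung (-0.35 to 0.01 with 1 array left out, 0.01 without tumor replicate 2), Carhsp1 in lung (-0.26 to 0.00, 0.00 without control replicate 2) and Carhsp1 between control organs (-0.51 with the mean of all probe sets).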
